A study of Mus musculus with 4 samples.

Results

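The 10 genes described here encode glucose transporters and enzymes of glycolysis and lactate formation (Slc2a1, Slc2a3, Hk2, Aldoa, Tpi1, Gapdh, Pgk1, Pkm, Ldha and Ldhb). They were chosen by symbol from the 32285 genes of the matrix, in which all 10 symbols were found on 11 rows, since Aldoa is listed under 2 identifiers. The cells were mouse embryonic stem cells of the male E14tg2a.4 line. The WT group was the parental line, and the Srrm2 hKO group was the gene-trap line CG0630 made in that line, which carries a heterozygous truncation of Srrm2, the gene of a splicing factor. There were 2 replicates of each of the 2 genotypes, all grown on gelatin with LIF, the cytokine that maintains mouse pluripotency, and moved to serum-free medium with LIF before collection. All Srrm2 hKO cells come from this single line, so an effect of the allele and of the line cannot be told apart. The length of growth in serum-free medium is given differently by the labels and the study's methods and was not tied to a sample.

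Each of the 4 libraries of the matrix carries a number, and nothing in the sources used here ties a number to WT or Srrm2 hKO. Libraries are therefore named 1 to 4, each is a single culture, and no comparison of genotypes was made. Srrm2 itself, the targeted gene, stood at 387, 533, 238 and 356 counts per 1000000 UMIs (CPM) in libraries 1 to 4, and no library was assigned from these values. After removal of cells with low UMI counts (unique molecular identifiers, counted transcripts) or a high mitochondrial share, 7464 to 8514 cells per library were kept, with 166839268 to 200180473 UMIs and medians of 18378 to 21898 UMIs per cell. Intervals are at 95% and reflect counting error alone, so differences between repeat cultures lie outside them. Of the distinct barcode sequences of kept cells, 0.329% occurred in more than 1 library.

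Glycolysis splits glucose into pyruvate in the cytosol, with a small net yield of ATP, and lactate dehydrogenase interconverts pyruvate and lactate. Mouse pluripotent cells in the naive state are known to use both mitochondrial respiration and glycolysis, and later epiblast-like states are known to lean more on glycolysis. Ldha and Ldhb encode the muscle-type and heart-type subunits of lactate dehydrogenase. Hypoxia-inducible factors are known activators of many glycolytic genes, Ldha and Slc2a1 among them, through sites built around the letters ACGTG or GCGTG.

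The promoter windows of Ldha, Ldhb and Slc2a1 are shown because these 3 genes differed at least 1.5-fold between the naive-high and formative-high cells described below in every library. They come from RefSeq (GRCm38.p6) and run from 250 bases before to 50 bases after an annotated start. Capitals mark ACGTG or its reverse complement CACGT, and a CACGTG counts as 2 matches because it holds both overlapping words. Ldha has 2 windows, of which the first listed is shown. It lies at chr7:46845554-46845853 on the plus strand and holds 5 matches, and the other, at chr7:46846832-46847131, holds 0. The Ldhb window at chr6:142507908-142508207 on the minus strand holds 0, and the Slc2a1 window at chr4:119108495-119108794 on the plus strand holds 1.
Ldha: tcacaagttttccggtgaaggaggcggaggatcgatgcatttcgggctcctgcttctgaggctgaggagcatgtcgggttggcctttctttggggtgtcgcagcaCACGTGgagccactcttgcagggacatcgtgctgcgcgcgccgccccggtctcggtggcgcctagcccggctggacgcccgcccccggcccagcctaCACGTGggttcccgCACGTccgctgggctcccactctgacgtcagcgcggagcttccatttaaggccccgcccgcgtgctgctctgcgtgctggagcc
Ldhb: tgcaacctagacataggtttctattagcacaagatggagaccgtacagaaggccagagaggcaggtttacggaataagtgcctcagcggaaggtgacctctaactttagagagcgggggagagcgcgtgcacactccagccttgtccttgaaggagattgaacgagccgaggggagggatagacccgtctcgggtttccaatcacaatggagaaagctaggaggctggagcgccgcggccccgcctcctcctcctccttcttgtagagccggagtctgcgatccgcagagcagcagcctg
Slc2a1: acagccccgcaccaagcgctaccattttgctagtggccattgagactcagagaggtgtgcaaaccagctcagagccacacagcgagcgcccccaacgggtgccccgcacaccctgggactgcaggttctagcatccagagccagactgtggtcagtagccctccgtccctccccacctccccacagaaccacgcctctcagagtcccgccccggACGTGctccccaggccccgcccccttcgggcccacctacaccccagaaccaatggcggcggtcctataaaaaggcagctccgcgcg

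Of all 32851 promoter windows of this length, 19.6% hold at least 1 match and 1.73% hold 3 or more. Windows were found for 9 of the 10 genes, 13 windows in all, and 8 of these, from 7 genes, hold a match. A pair of the Aldoa windows overlap and hold the same match, so it is counted in both. The Hk2 and Pgk1 windows and 1 of the Pkm windows hold 2 matches each, and the Gapdh window holds 1. The windows without a match are those of Ldhb and Tpi1, another Ldha window, 1 Pkm window and 1 Aldoa window. The form GCGTG was not counted or marked, and on either strand it occurs in each of the Ldha, Ldhb and Slc2a1 windows shown. A window with 0 matches is therefore not one without such letters. A match describes the letters in the window and not a site in use.

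The kept cells were put into classes by summed markers. A cell was keratin-high with at least 500 CPM of Krt8 and Krt18. The other classes used 10 naive markers and 9 formative markers (among them Otx2, Dnmt3b and Fgf5). The naive markers were Nanog, Klf2, Klf4, Klf5, Tbx3, Esrrb, Zfp42, Tfcp2l1, Nr5a2 and Prdm14. Naive-high cells had at least 1000 CPM of the naive and under 1000 CPM of the formative panel. Both-high cells had at least 1000 CPM of both panels. Formative-high cells had at least 1000 CPM of the formative and under 500 CPM of the naive panel. Klf2 and Zfp42 weighed most in the naive sum. In naive-high cells they held 582 and 553 of 2052 CPM in library 1 and 439 and 719 of 1745 CPM in library 4. These classes are ranges of a score and not cell types, and 1401 cells lay within 10% of the naive limit and 1385 within 10% of the formative limit. Naive-high cells made up 93.4%, 73.1%, 72.3% and 38.0% of libraries 1 to 4, and formative-high cells 1.06%, 13.3%, 3.50% and 35.3%. Keratin-high cells made up 0.751%, 0.376%, 8.35% and 3.55%, and with only 32 such cells library 2 was left out of keratin comparisons. The remaining cells, here called between, made up 4.75%, 8.52%, 15.7% and 18.3% of libraries 1 to 4. None of the 10 genes was used to set the classes.

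Across whole libraries, Ldha and Slc2a1 were lowest in library 1 and highest in library 4, and Ldhb had the opposite order at its ends. The highest library was at least 1.5-fold above the lowest for 7 of the 10 genes (Slc2a1, Hk2, Aldoa, Tpi1, Gapdh, Ldha and Ldhb), while 34.0% of the 7318 genes of at least 10 CPM differed as much. The median log2 ratio of the highest over the lowest library was 0.67 for the 10 genes and 0.45 for all genes tested. Without library 1, 4 genes remained at least 1.5-fold apart (Slc2a1, Hk2, Ldha and Ldhb), against 22.0% of all genes over the same 3 libraries. Slc2a1, Ldha and Ldhb stayed at least 1.5-fold apart whichever library was left out, whereas Aldoa did not without library 1 or 2, Tpi1 and Gapdh without library 1 or 4, and Hk2, just under the limit, without library 3. Differences between libraries could not be assigned to genotype or culture, and the classes of cells that each library held varied with them.

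**Figure D1:**
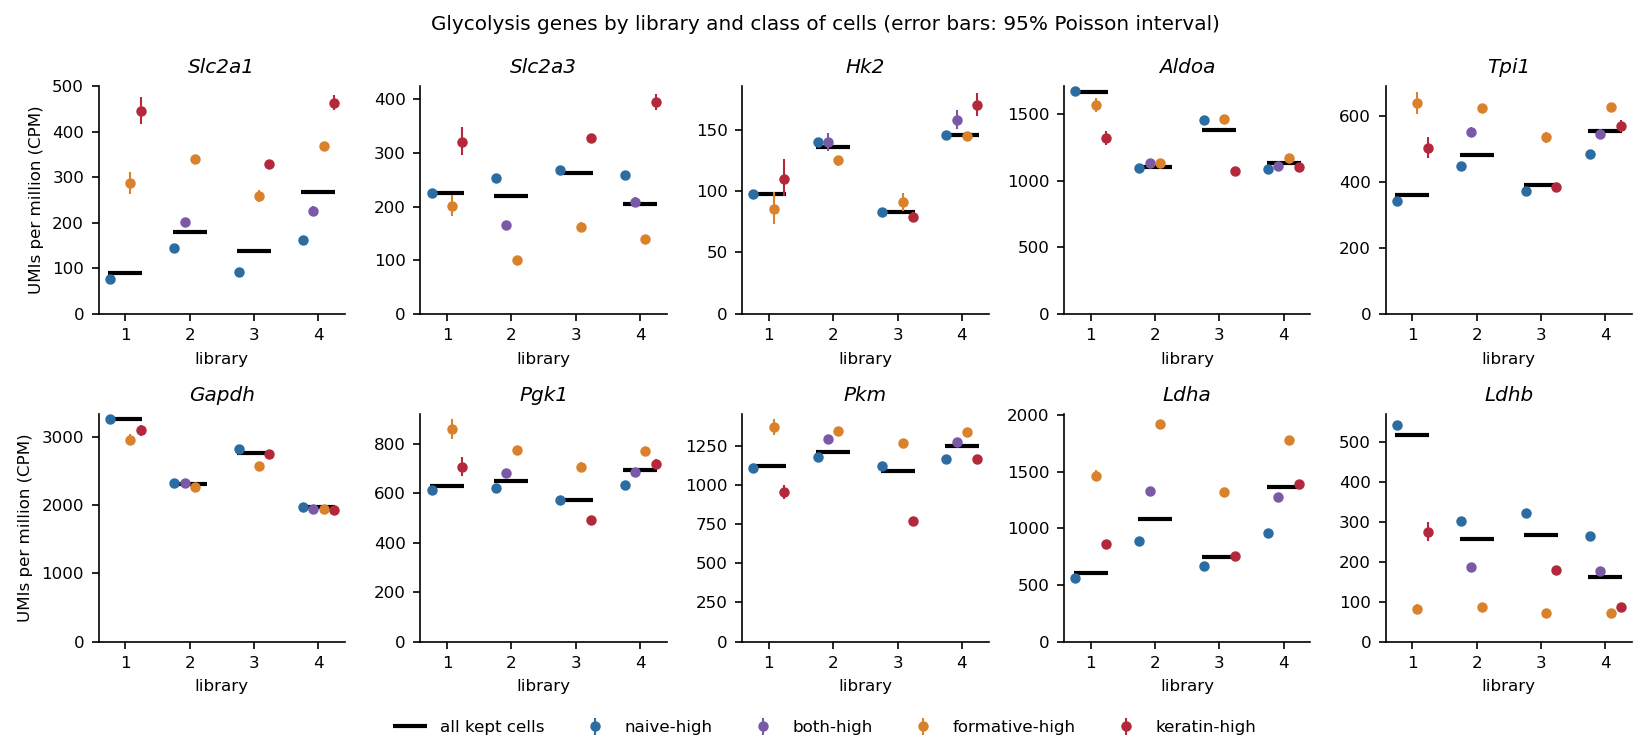
Level of each gene in CPM (vertical axes from 0) in libraries 1 to 4 (horizontal axes), in all kept cells (black bars) and in naive-high, both-high, formative-high and keratin-high cells (coloured points with 95% Poisson intervals, classes of at least 50 cells). Formative-high points lie above naive-high points of the same library for Slc2a1 and Ldha and below them for Ldhb in all 4 libraries, while Gapdh and Aldoa points of these classes lie close together.

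Slc2a1 (ENSMUSG00000028645, chromosome 4, 119108711 to 119137983, GRCm38) encodes GLUT1, the widespread facilitative glucose transporter. All kept cells together gave 90.1, 179, 139 and 267 CPM of Slc2a1, 2.97-fold more in library 4 than in library 1, and no intervals of neighbouring libraries overlapped. The range was 1.92-fold without library 1 and 1.99-fold without library 4. Naive-high cells held 77.4, 145, 91.4 and 162 CPM, and formative-high cells 287, 339, 258 and 369 CPM. The lowest formative-high value was thus above the highest naive-high value, and within libraries Slc2a1 was 3.71-, 2.34-, 2.82- and 2.28-fold higher in formative-high cells. Keratin-high cells had the highest Slc2a1 level of the classes named here in each of the 3 libraries compared, at 445, 328 and 464 CPM in libraries 1, 3 and 4. This was 5.75-, 3.58- and 2.86-fold the naive-high level and 1.55-, 1.27- and 1.26-fold the formative-high level.

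Slc2a3 (ENSMUSG00000003153, chromosome 6, 122727809 to 122801640) encodes GLUT3, a high-affinity glucose transporter of neurons and early embryos. Its library levels were close, at 225, 219.9, 262 and 205 CPM, and the intervals of libraries 1 and 2 met at 222 CPM. Formative-high cells held less Slc2a3 than naive-high cells in every library, with 201 against 225 CPM in library 1, 101 against 253 CPM in library 2, 162 against 268 CPM in library 3 and 139 against 259 CPM in library 4. The ratios were 0.890, 0.401, 0.604 and 0.535, so library 1, with 86 formative-high cells, stayed short of a 1.5-fold difference and the other libraries passed it. Keratin-high cells held more, at 321, 328 and 394 CPM in libraries 1, 3 and 4, which was 1.42-, 1.22- and 1.52-fold the naive-high and 1.60-, 2.02- and 2.84-fold the formative-high level. The transporters therefore differed in opposite directions between naive-high and formative-high cells and both stood higher in keratin-high cells.

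The share of Slc2a1 in the UMIs of both transporters puts this in a single measure, which was chosen after the levels were seen and is compared here only between classes. Pooled over cells, Slc2a1 held 25.6%, 36.5%, 25.4% and 38.5% of the pair in naive-high cells of libraries 1 to 4. In formative-high cells it held 58.8% (95% exact binomial interval 55.7 to 61.9), 77.0%, 61.4% (59.6 to 63.2) and 72.7%. Keratin-high cells of libraries 1, 3 and 4 held 58.1%, 50% and 54.1%, and both-high cells of libraries 2 and 4 held 54.9% and 52.1%. Among single cells with at least 10 UMIs of the pair, Slc2a1 exceeded Slc2a3 in 4.65% to 22.8% of naive-high cells and in 63.8% to 91.4% of formative-high cells. Such cells were 17.6% to 42.6% of the naive-high cells of a library and 43.1% to 54.7% of the formative-high cells.

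Hk2 (ENSMUSG00000000628, chromosome 6, 82725025 to 82774454), a hexokinase that binds mitochondria and traps glucose as glucose-6-phosphate, followed the library and not the class. Its levels were 97.3, 136, 83.1 and 146 CPM in libraries 1 to 4, with libraries 2 and 4 high and libraries 1 and 3 low. In naive-high cells alone they were 97.7, 139.8, 82.7 and 146 CPM, a 1.77-fold range against 1.75-fold in all cells. Formative-high over naive-high ratios were 0.877, 0.891, 1.10 and 0.990 in libraries 1 to 4, and keratin-high over naive-high ratios were 1.13, 0.949 and 1.16 in libraries 1, 3 and 4.

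Aldoa (ENSMUSG00000030695, chromosome 7, 126795234 to 126800751) encodes the aldolase that splits fructose-1,6-bisphosphate. It stood at 1667, 1101, 1382 and 1131 CPM, 1.51-fold higher in library 1 than in library 2, and 1.47-fold apart at most without library 2. Naive-high cells gave nearly the same values, 1672, 1094, 1451 and 1089 CPM, and the formative-high over naive-high ratios were between 0.936 and 1.08. Keratin-high cells held 1320.0, 1068 and 1102 CPM in libraries 1, 3 and 4, with ratios of 0.790, 0.736 and 1.01 to naive-high cells. The other Aldoa identifier, ENSMUSG00000114515, a neighbouring gene model, stood at 0.114 to 0.201 CPM and was not used further.

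Gapdh (ENSMUSG00000057666, chromosome 6, 125161715 to 125166467), the glyceraldehyde-3-phosphate dehydrogenase often taken as a constant reference, stood at 3259.9, 2311, 2774 and 1975 CPM. Library 1 was 1.65-fold above library 4, and naive-high cells alone gave the same 1.65-fold. The range was 1.40-fold without library 1 and 1.41-fold without library 4. Within libraries the classes were close, with formative-high over naive-high ratios of 0.908 to 0.983 and keratin-high over naive-high ratios of 0.949, 0.975 and 0.976 in libraries 1, 3 and 4. Gapdh and Aldoa were thus both high in libraries 1 and 3 and low in libraries 2 and 4, while Hk2 was high in libraries 2 and 4.

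Tpi1 (ENSMUSG00000023456, chromosome 6, 124810586 to 124814296) encodes triose-phosphate isomerase, which interconverts the products of aldolase. It was at 359.6, 483, 391 and 554 CPM in libraries 1 to 4, 1.54-fold higher in library 4 than in library 1, and at 1.41-fold in naive-high cells alone. The range fell short of 1.5-fold without library 1 (1.41-fold) or library 4 (1.34-fold), and with all libraries it was 0.50 on the log2 scale with size factors and 0.54 with mitochondrial and ribosomal protein genes left out of the total, against 0.62 as reported. Formative-high cells held 639.7, 624, 536 and 629 CPM against 344, 449, 374 and 486 CPM in naive-high cells, so every formative-high value exceeded every naive-high value. The ratios of 1.86, 1.39, 1.43 and 1.29 passed 1.5-fold in library 1 only. Keratin-high over naive-high ratios were 1.46, 1.03 and 1.17 in libraries 1, 3 and 4.

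Pgk1 (ENSMUSG00000062070, chromosome X, 106187100 to 106203699), whose enzyme makes the first ATP of the pathway, stood at 632, 649, 574 and 697 CPM. Its formative-high over naive-high ratios were between 1.22 and 1.40, all above 1 and all under 1.5. Pkm (ENSMUSG00000032294, chromosome 9, 59656368 to 59679375), the pyruvate kinase gene, had a 1.15-fold range between libraries, with 1120.1, 1213, 1088 and 1252 CPM. Its ratios were 1.24, 1.14, 1.13 and 1.15 in formative-high cells and 0.864, 0.687 and 1.00 in keratin-high cells of libraries 1, 3 and 4. Counts of the 3′ ends do not separate the splice forms of Pkm.

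Ldha (ENSMUSG00000063229, chromosome 7, 46841475 to 46855627), whose product favours the reduction of pyruvate to lactate, gave 604, 1086, 751 and 1365 CPM and was 2.26-fold higher in library 4 than in library 1. Formative-high cells held 1466, 1926, 1323 and 1781 CPM and naive-high cells 559.5, 887, 664 and 959 CPM. The classes did not overlap, and the ratios were 2.62, 2.17, 1.99 and 1.86. Both-high cells of libraries 2 and 4 stood between, at 1329 and 1279 CPM. They had the highest median UMIs of the 3 classes in both libraries, 25013 and 24299 against 21958 and 21278 in naive-high and 21558 and 21506 in formative-high cells, and since doublets were not called, cells holding both panels and pairs of cells cannot be told apart. Keratin-high cells held 859, 754 and 1389 CPM in libraries 1, 3 and 4, which was 1.53-, 1.14- and 1.45-fold the naive-high level but 0.586, 0.570 and 0.780 of the formative-high level.

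Ldhb (ENSMUSG00000030246, chromosome 6, 142490249 to 142507957), whose product favours the oxidation of lactate to pyruvate, was at 519, 257, 267 and 162 CPM, a 3.20-fold range. Without library 1 the range was 1.64-fold, narrower than those of Slc2a1 (1.92-fold), Ldha (1.82-fold) and Hk2 (1.75-fold) over the same libraries, and without library 4 it was 2.02-fold. Naive-high cells held 544, 302, 322 and 265 CPM, with library 1 apart from the others. Formative-high cells held 81.8, 85.9, 72.7 and 71.1 CPM, a narrow range that lay below every naive-high value, and the ratios were 0.150, 0.285, 0.226 and 0.268. Keratin-high cells held 276, 180.0 and 86.8 CPM in libraries 1, 3 and 4, with ratios of 0.507, 0.559 and 0.327 to naive-high cells. Keratin-high cells of library 4 were close to formative-high cells of that library (1.22-fold), and those of libraries 1 and 3 were 3.37- and 2.48-fold above them. The keratin-high cells were not alike in other markers, with a summed formative panel of 462, 376 and 701 CPM and a median keratin level of 1555, 2609.9 and 1167 CPM in libraries 1, 3 and 4, library 4 being nearest to the limit of 500 CPM.

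Of the 10 genes, 2 were at least 1.5-fold higher in formative-high than in naive-high cells of all 4 libraries (Slc2a1 and Ldha), where 7.12% of all genes tested were, and 1 was at least 1.5-fold lower (Ldhb), where 6.38% were. In keratin-high cells of the 3 libraries compared, Slc2a1 was higher, where 12.8% of all genes were, and Ldhb lower, where 9.69% were. With 1 or 2 genes called in a direction, nothing about glycolysis genes as a group can be read from these counts. The median log2 ratio of formative-high over naive-high cells was 0.11, 0.12, 0.16 and 0.15 for the 10 genes and 0.18, 0.09, 0.15 and 0.08 for all genes in libraries 1 to 4, so the ratios near 1 in this text are to be read against that shift.

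**Figure D2:**
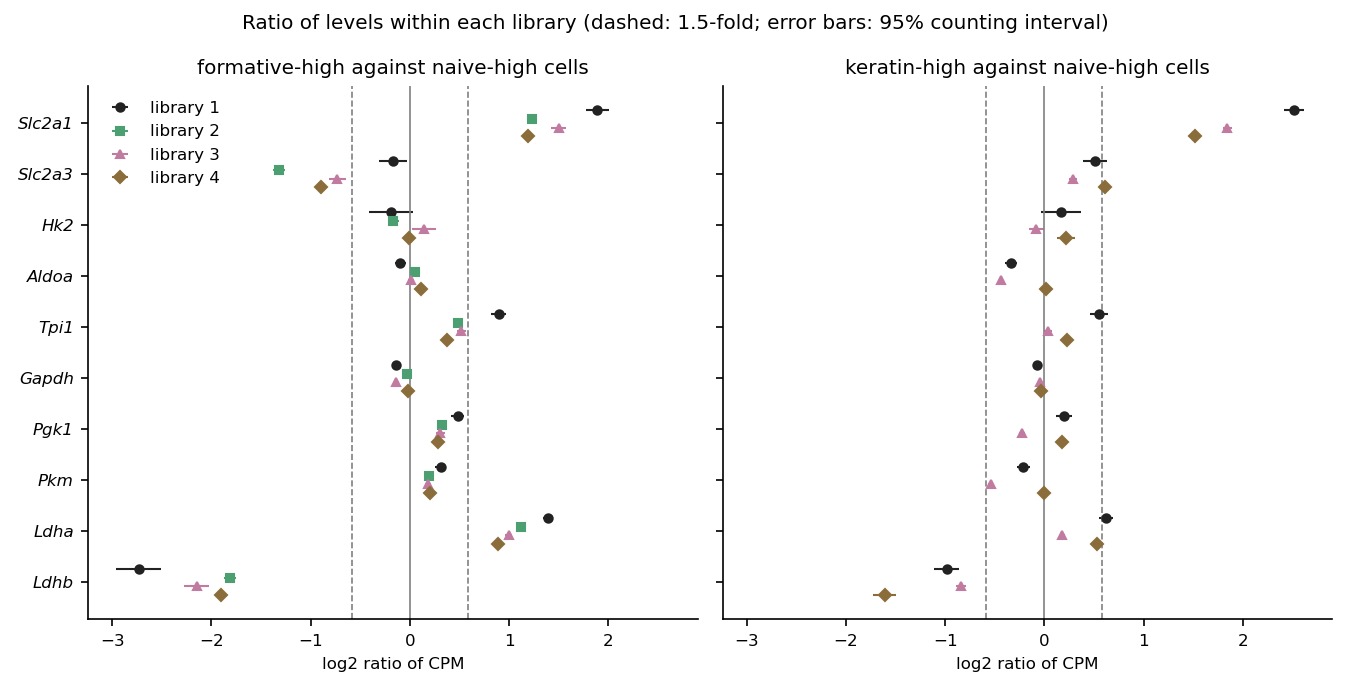
Log2 ratio of CPM (horizontal axes) of formative-high (left) and keratin-high (right) against naive-high cells for each gene, with 1 symbol per library and 95% counting intervals. Symbols right of the right dashed line in every library mark genes at least 1.5-fold higher (Slc2a1 and Ldha on the left, Slc2a1 on the right), and Ldhb lies left of the left dashed line in every library of both plots.

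Library composition and levels within a class both varied. In naive-high cells alone, 6 of the 10 genes were still at least 1.5-fold apart between libraries, where 27.7% of all genes were. Slc2a1 was 2.09-fold higher and Ldha 1.71-fold higher in library 4 than in library 1, against 2.97-fold and 2.26-fold in all cells. Ldhb was 2.05-fold higher in library 1 than in library 4, against 3.20-fold in all cells. Naive-high cells were not alike in the panels, since the summed formative panel stood at 167, 394, 234 and 458 CPM in them in libraries 1 to 4, the same order of libraries as for Slc2a1 and Ldha, and the naive panel at 2052, 1925, 1839 and 1745 CPM. Single naive markers in these cells ranged from 1.14-fold for Esrrb to 10.2-fold for Tbx3, both higher in library 1 than in library 4. Zfp42 was highest in library 4 (1.30-fold over library 3) and Nr5a2 in library 2 (1.61-fold over library 3). The part of these differences in the levels of the members was not tested. The ranges of Slc2a1, Ldha and Ldhb were therefore narrower within naive-high cells, and those of Hk2, Gapdh and Aldoa were about as wide.

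The Ldha share of the UMIs of both lactate dehydrogenase genes, again a measure chosen after the levels were seen, was 50.7%, 74.6%, 67.3% and 78.3% in naive-high cells of libraries 1 to 4. In formative-high cells it was 94.7%, 95.7%, 94.8% and 96.2%, near the upper end of the scale, where a share cannot show how far libraries differ in level. Keratin-high cells of libraries 1, 3 and 4 had 75.7%, 80.7% and 94.1%, and both-high cells of libraries 2 and 4 had 87.6% and 87.8%. Among single formative-high cells with at least 10 UMIs of the pair, Ldha exceeded Ldhb in every cell in each library (81 to 2604 cells). In naive-high cells the same was true of 47.4%, 86.1%, 75.8% and 90.5%, and the quartiles of the share reached from 33.3% to 64.7% in library 1 and from 67.6% to 90.0% in library 4.

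**Figure D3:**
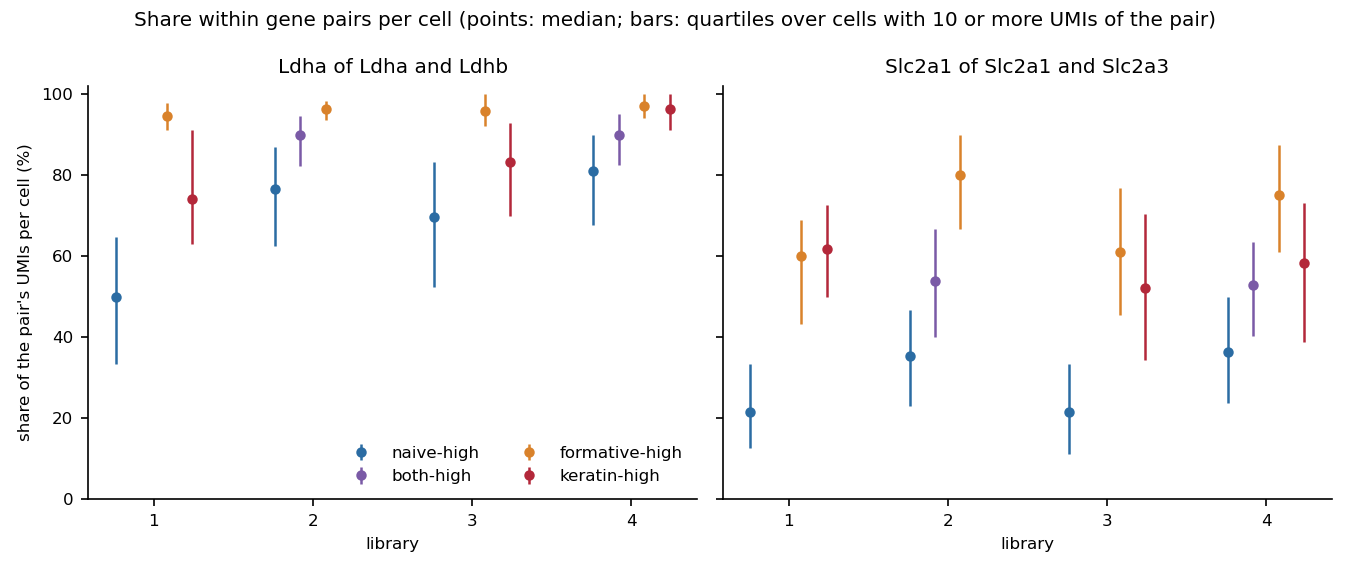
Share per cell of Ldha in the UMIs of Ldha and Ldhb (left) and of Slc2a1 in those of Slc2a1 and Slc2a3 (right), in percent from 0 to 100, by library and class. Points are medians and bars run between quartiles over cells with at least 10 UMIs of the pair, and formative-high medians (94.7% to 97.0% for Ldha) lie above naive-high medians (50% to 81.0%) in every library.

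Along bins of the naive panel the same genes varied by degrees. This panel also sets the classes, with the same limits of 500 and 1000 CPM. The bins are therefore no separate support for the class values. Cells that were not keratin-high were put into 5 bins of the naive panel (under 500, 500 to 1000, 1000 to 1500, 1500 to 2000 and at least 2000 CPM), a division made after the class values were seen. From the lowest to the highest bin, Ldha went from 1404 to 499 CPM in library 1, from 1887 to 863 in library 2, from 1132 to 594 in library 3 and from 1752 to 962 in library 4, lower at each step. Slc2a1 was likewise lower at each step in every library, from 268 to 73.7 CPM in library 1 and from 357 to 162 CPM in library 4. Ldhb was higher at each step, from 101 to 560.4 CPM in library 1, from 90.4 to 316 in library 2, from 91.4 to 340.4 in library 3 and from 74.0 to 274 in library 4. The largest steps for Ldhb lay below 1500 CPM of the panel. Not every step was resolved by the intervals. For Slc2a1 the last step overlapped in libraries 2, 3 and 4 (161 to 170.3 and 156 to 167 CPM in library 4). Ldha overlapped at the last step of library 4 (962 to 985 and 947 to 976 CPM). Ldhb overlapped between the bins from 1000 and from 1500 CPM of library 1 (510.1 to 529 and 523 to 536 CPM).

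Slc2a3 was higher at each step in libraries 2, 3 and 4, from 105 to 279, from 202 to 318 and from 146 to 298 CPM. The intervals of its lowest bins in library 3 overlapped (196 to 208 and 200.4 to 216 CPM). In library 1 Slc2a3 stood at 200.2, 189, 192, 212 and 244 CPM, with no order over the lowest 3 bins. Tpi1 was lower at each step in all 4 libraries, from 631 to 313 CPM in library 1 and from 616 to 483 CPM in library 4. In the highest 3 bins of library 4 its neighbouring intervals overlapped (496 to 512, 481 to 498 and 473 to 494 CPM). Gapdh showed no such order over all bins. In libraries 1 and 3 it rose and then fell, at 3136, 3264, 3365, 3303 and 3213 CPM and at 2568, 2709, 2824, 2862 and 2772 CPM. The lowest and highest bins held 2265 and 2323 CPM in library 2 and 1951 and 1942 CPM in library 4.

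**Figure D4:**
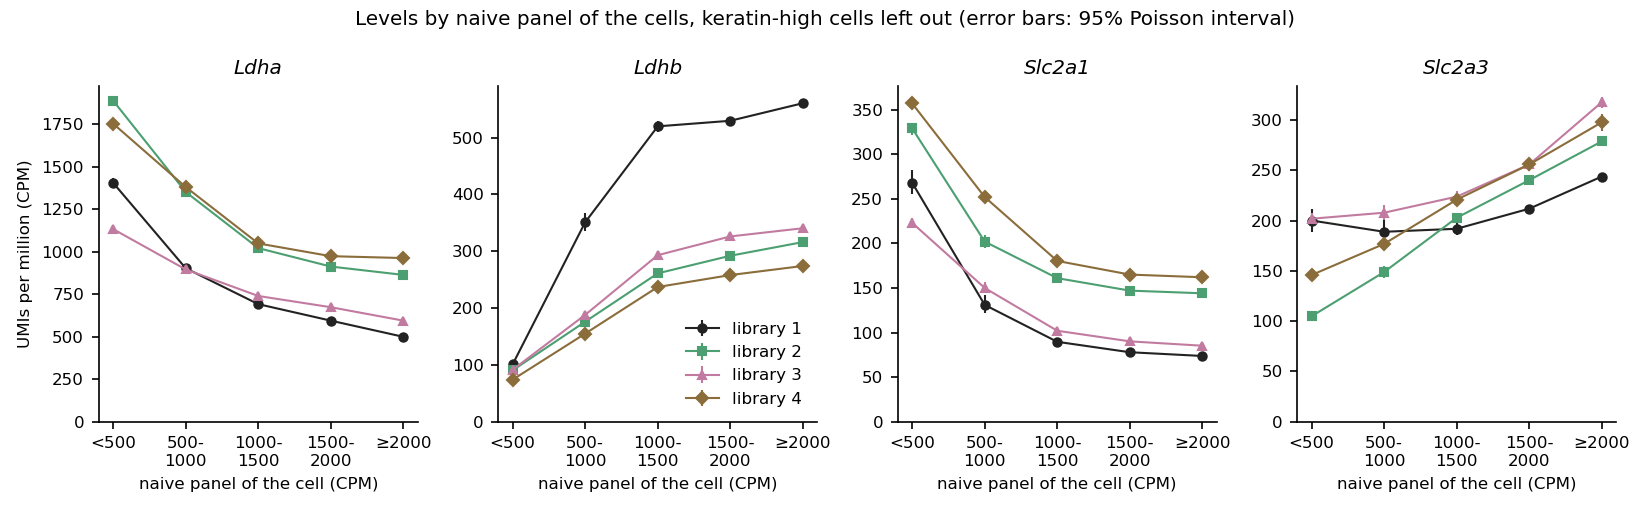
Level in CPM (vertical axes from 0) of Ldha, Ldhb, Slc2a1 and Slc2a3 in 5 bins of the naive panel of the cell (horizontal axes, CPM), 1 line per library with 95% Poisson intervals, keratin-high cells left out. Ldha and Slc2a1 lines go down from left to right and Ldhb lines go up in all 4 libraries, and Slc2a3 lines go up in libraries 2, 3 and 4.

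Other values of the cells varied with the classes. The median mitochondrial share of UMIs was 5.46%, 4.18%, 4.73% and 3.78% in naive-high and 3.48%, 3.73%, 3.53% and 3.37% in formative-high cells, and 3.78%, 3.32% and 2.94% in keratin-high cells of libraries 1, 3 and 4. The median share of ribosomal protein genes was 28.3%, 25.2%, 27.6% and 26.7% in naive-high and 24.3%, 22.9%, 23.9% and 24.7% in formative-high cells. In keratin-high cells of libraries 1, 3 and 4 it was 23.8%, 22.8% and 24.0%. Median UMIs per cell were 18234 to 21958 in naive-high, 21506 to 22485 in formative-high and 23621 to 26919 in keratin-high cells. Summed markers of trophectoderm, primitive endoderm, fibroblasts and primed or streak cells were low in naive-high cells and higher in keratin-high cells. The 4 trophectoderm markers (Cdx2, Elf5, Krt7 and Gata3) summed to 1.32 to 2.89 CPM in naive-high, 2.71 to 3.65 CPM in formative-high and 32.5 to 69.9 CPM in keratin-high cells. Elf5 was at 0 in all 3 keratin-high groups and Cdx2 at 0 in that of library 1, which leaves Krt7, itself a keratin gene, and Gata3 there. The 5 primitive endoderm markers summed to 0.705 to 1.30, 2.44 to 5.22 and 6.82 to 21.9 CPM in the same order, with Gata4, Sox17 and Pdgfra at 0 in keratin-high cells of library 1. The 5 fibroblast markers summed to 1.44 to 3.81, 5.36 to 14.1 and 27.8 to 58.4 CPM, with Lum at 0 in keratin-high cells of all 3 libraries. The 4 primed or streak markers summed to 1.44 to 2.57, 6.47 to 11.7 and 24.9 to 30.9 CPM, with Mixl1 at 0 in keratin-high cells of library 1. The 5 two-cell-like markers stayed at or under 1.52 CPM in these classes. The part of these cells, of depth and of the mitochondrial and ribosomal shares in the results was not tested.

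Library and class, with the between cells included, formed 17 groups of at least 50 cells. Over these groups, the log2 levels of Tpi1 and Ldha had a Pearson r of 0.94, Aldoa and Gapdh 0.80, Ldha and Ldhb -0.84 and Hk2 and Gapdh -0.83. These groups share libraries, so the values are descriptions. Over the single cells of a library, thinned to 5000 UMIs each, r was much nearer to 0, at 0.22 to 0.33 for Tpi1 and Ldha, 0.13 to 0.23 for Aldoa and Gapdh, -0.22 to -0.05 for Ldha and Ldhb and -0.03 to 0.04 for Hk2 and Gapdh. These are not like measures, since the groups span libraries and the cells were taken within a library. Counting error in thinned cells also draws r towards 0, with mean Hk2 counts of 0.395 to 0.705 UMIs per cell. A low r over cells therefore does not show that genes vary apart. Of other genes, the nearest in pattern was Jph4 for Ldha (r = 0.99), Csrp2 for Ldhb (0.96), Ahcyl1 for Slc2a1 (0.97), Mme for Slc2a3 (0.93) and Morf4l1 for Hk2 (0.94). For Aldoa it was Gpi1 (0.94), for Tpi1 Rab25 (0.96), for Gapdh the gene model Rpl9-ps6 (0.97), for Pgk1 Haus8 (0.89) and for Pkm Ncapg (0.98). Each was the highest r in a search over all genes of at least 10 CPM, so high values were to be found in any case. Some were level with others at this precision, as Ahcyl1 with Exoc5 and Limd1 for Slc2a1 (0.97).

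Among 17 other glycolysis genes, 12 reached 10 CPM, 3 were at least 1.5-fold higher in formative-high cells of all libraries (Slc16a3, Eno3 and Bpgm) and 2 lower (Pfkp and Hk1), against 7.12% higher and 6.38% lower among all genes. The median log2 ratio of the list, averaged over libraries, was 0.20 and that of all genes 0.13. Slc16a3, the lactate exporter MCT4, stood at 97.0, 120.3, 87.9 and 124 CPM in formative-high against 24.3, 41.9, 22.4 and 50.7 CPM in naive-high cells of libraries 1 to 4. Its values did not overlap between the classes, and keratin-high cells held 75.0, 55.7 and 151 CPM in libraries 1, 3 and 4. Pfkp, the platelet-type phosphofructokinase, had the lowest ratios of the list, with 14.6, 37.7, 16.4 and 33.0 CPM in formative-high against 143, 163, 85.7 and 125 CPM in naive-high cells. Pfkl, the liver-type phosphofructokinase, had ratios of 1.02 to 1.19 there, so the phosphofructokinase genes did not follow each other. Hk1 was low, with 2.92, 7.08, 5.87 and 7.90 CPM in formative-high against 13.3, 19.2, 10.3 and 19.1 CPM in naive-high cells.

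Eno3, the muscle-type enolase, was 4.69-, 1.79-, 3.54- and 1.92-fold higher in formative-high cells of libraries 1 to 4, at 11.4 to 35.8 CPM. Eno1, the main enolase gene, had ratios of 1.03 to 1.16. Bpgm, which makes 2,3-bisphosphoglycerate, was 1.86- to 2.51-fold higher. In keratin-high cells Slc16a3, Eno3 and Bpgm were again at least 1.5-fold higher and Pfkp lower in all 3 libraries, and Aldoc, another aldolase gene, was lower, with ratios of 0.401, 0.330 and 0.430. Among all genes 12.8% were higher and 9.69% lower there, and the median log2 ratio was -0.30 for the list and 0.01 for all genes. Between libraries 10 of the 12 genes were at least 1.5-fold apart (Hk1, Gpi1, Pfkl, Pfkm, Pfkp, Bpgm, Eno1, Eno3, Slc16a1 and Slc16a3), where 34.0% of all genes were.

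In the pyruvate list, 7 of 10 genes were tested. Mpc1, a subunit of the carrier that brings pyruvate into mitochondria, was lower in formative-high cells, at 30.2, 13.6, 34.2 and 13.9 CPM against 70.1, 41.6, 78.3 and 37.6 CPM. Pdk1, a kinase that inhibits pyruvate dehydrogenase, was lower in keratin-high cells, at 20.5, 28.4 and 41.9 CPM against 73.6, 88.5 and 128 CPM in libraries 1, 3 and 4. The other pyruvate genes tested did not reach 1.5-fold in the same direction in all libraries of either comparison, and 4 of the 7 did between libraries (Mpc1, Mpc2, Dlat and Pdk1), against 34.0% of all genes. With 1 gene of 7 called lower in each comparison of classes, where 6.38% and 9.69% of all genes were lower in formative-high and keratin-high cells, the counts describe single genes. The median log2 ratios of the list were -0.16 and -0.11, against 0.13 and 0.01 for all genes.

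Of 13 hypoxia-inducible genes outside glycolysis, 7 were tested, and genes were called in both directions. Vegfa, Ndrg1, Ankrd37, P4ha2, Car9 and Adm lay below 10 CPM and were not tested. Egln1 and Egln3, oxygen-sensing prolyl hydroxylases, were higher in formative-high cells by 1.80- to 3.44-fold and 2.49- to 5.62-fold, and Ddit4, an inhibitor of mTORC1 signalling, by 2.70- to 5.09-fold. Kdm3a, a histone demethylase, was lower, with ratios of 0.312 to 0.383, and Bnip3, a mitophagy receptor, had ratios of 0.955 to 1.23. These 3 genes higher and 1 lower compare with 7.12% and 6.38% of all genes. In keratin-high cells Egln1, Ddit4 and P4ha1, a collagen prolyl hydroxylase, were higher and Bnip3 and Kdm3a lower, where 12.8% and 9.69% of all genes were. The median log2 ratios of the list were 0.27 and 0.23 in the comparisons of formative-high and keratin-high cells, against 0.13 and 0.01 for all genes. Between libraries 5 of the 7 were at least 1.5-fold apart (Egln1, Egln3, Bnip3, Kdm3a and Ddit4), where 34.0% of all genes were.

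Among 8 regulators, 6 were tested. Hif1a, the oxygen-regulated factor, had formative-high over naive-high ratios of 1.23 to 1.34, and Myc had 3.99, 1.55, 2.09 and 1.46, so library 4 was just short of 1.5-fold. Tigar, a phosphatase that lowers glycolytic flux, was lower in formative-high cells, with ratios of 0.374 to 0.537, and in keratin-high cells, with 0.389 to 0.420. In keratin-high cells Myc was 2.07- to 3.74-fold higher and Mycn lower, with ratios of 0.363 to 0.381. The counts were 1 of 6 lower in formative-high cells (6.38% of all genes) and 1 higher and 2 lower in keratin-high cells (12.8% and 9.69%), with median log2 ratios of 0.09 and -0.29 against 0.13 and 0.01. Between libraries 5 of the 6 were at least 1.5-fold apart (Hif1a, Myc, Mycn, Tigar and Txnip), where 34.0% of all genes were, and Txnip, an inhibitor of glucose uptake, was 3.36-fold higher in library 1 than in library 2.

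All 7 pentose phosphate genes and all 16 genes of the tricarboxylic acid cycle were tested, and by the same 1.5-fold rule none was called in formative-high cells in either direction. Of all genes 7.12% were called higher and 6.38% lower there, and nothing is read from a count of 0 in lists this short. Their median log2 ratios were 0.06 and 0.09, against 0.13 for all genes. In keratin-high cells Dlst, a subunit of the 2-oxoglutarate dehydrogenase complex, was called higher (1.80-, 1.77- and 2.00-fold), the only one of these 23 genes that was, and none was called lower (12.8% and 9.69% of all genes). The median log2 ratios were -0.20 and -0.11, against 0.01. Between libraries 3 of the 7 (G6pdx, Pgd and Pgls) and 3 of the 16 (Idh3b, Idh3g and Sdhb) were at least 1.5-fold apart, where 34.0% of all genes were.

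**Figure D5:**
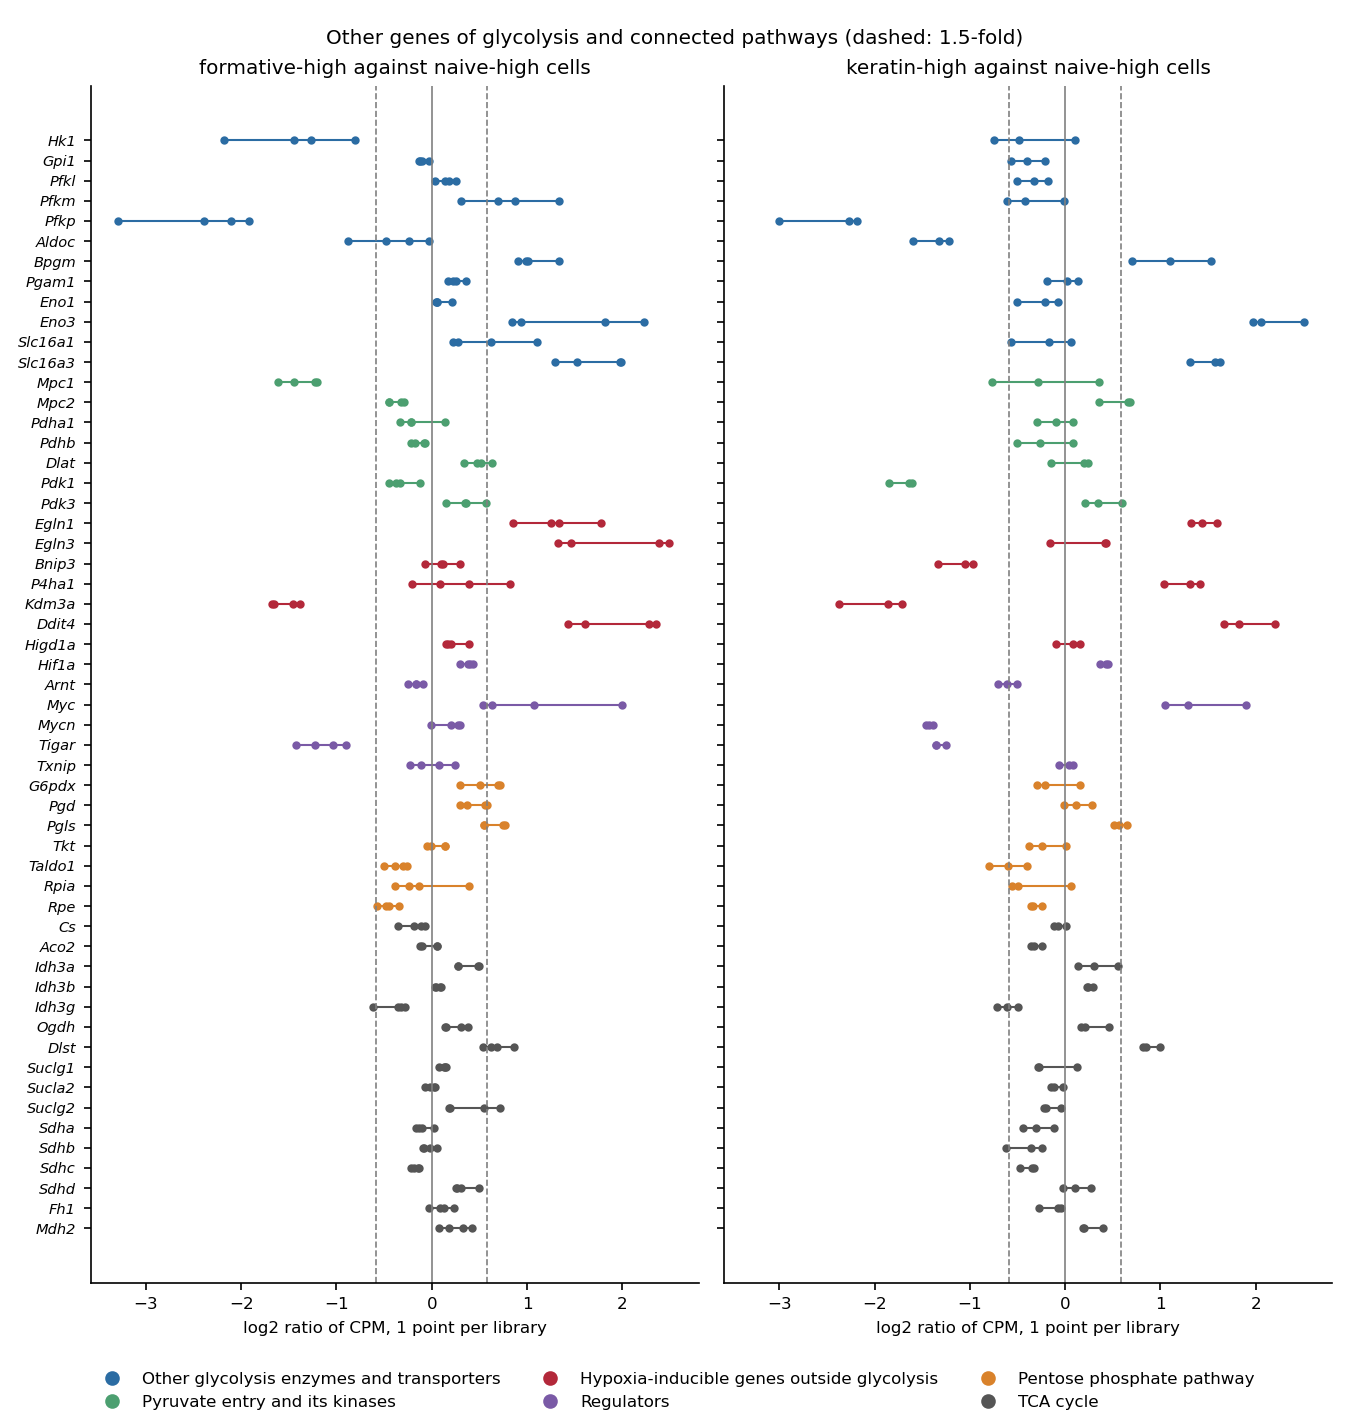
Log2 ratio of CPM (horizontal axes) of formative-high (left) and keratin-high (right) against naive-high cells for every tested gene of the 6 other lists, 1 point per library joined by a line, with dashed lines at 1.5-fold. Slc16a3, Eno3, Bpgm, Egln1 and Ddit4 lie right of the right dashed line in every library of both plots, Pfkp, Kdm3a and Tigar left of the left one, and most pentose phosphate and tricarboxylic acid cycle genes lie between the lines.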

How the data were processed

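The deposited matrix holds raw UMI counts per gene and barcode (32285 genes, 41142 barcodes). Per the file headers and the submitters' processing notes, the authors aligned 3′-end libraries to mm10 with Cell Ranger 6.1.2 and joined them with its aggregation step, which subsamples reads to like depth. That reduces depth differences between libraries. Kept cells (31989) had UMIs and genes of at least the library mean minus 1 SD and at most 10% mitochondrial UMIs. Doublets were not called. Counts were summed by library and class and divided by total UMIs (CPM), with exact Poisson intervals for levels and conditional binomial intervals for ratios (Python 3.11.15, SciPy 1.17.1). A gene of at least 10 CPM was called past 1.5-fold, for classes in every library with at least 50 cells of both. No p-value was computed, because library numbers could not be tied to samples. Named were the 10 members, list genes past 1.5-fold, up to 5 genes of lowest fold per list, the gene nearest to each member over groups of cells, Srrm2 and class markers. Members and lists were chosen with earlier results of these data known. The fold rule for classes was tested on simulated counts that held counting error alone. The class limits, pair shares, bins and promoter matches were not tested that way. Reads shared with pseudogenes or near-identical copies, which are many for Gapdh, Aldoa, Pgk1 and Ldha, may be lost or misassigned.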

Additional observations from a re-analysis of the deposited data

How the results depend on the processing

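No paired analysis was possible because library numbers could not be tied to labelled samples, and for the same reason neither Srrm2 hKO against WT nor its replicate block was run. At a 2-fold limit, 3 genes were apart between libraries (Slc2a1, Ldha and Ldhb), 1 was higher in formative-high cells (Slc2a1) and 0 were lower in keratin-high cells, against 11.5%, 2.71% and 4.93% of all genes. Stricter class limits gave 2 genes lower in formative-high cells of libraries 2, 3 and 4 (Slc2a3 and Ldhb), against 6.79% of all genes. With each library left out in turn, 4 to 6 genes were apart between libraries, lowest without library 1 (22.0% to 30.3% of all genes), and 1 to 2 were lower in formative-high cells, with Slc2a3 added without library 1 (6.64% to 6.94% of all genes). The log2 range of Ldhb between libraries was 1.68 with all and 0.71 without library 1. The other counts of the 10 genes were within 1.5 times the reported ones under all barcodes, no cells of very high UMI counts, other scaling or totals, per-cell means, a lower fold limit, wider classes and classes from thinned cells, though Tpi1 was under 1.5-fold between libraries with size factors and with mitochondrial and ribosomal protein genes left out. At the lower fold limit, 67.4% of all genes were apart between libraries, and 16.3% were higher and 10.4% lower in formative-high and 21.4% higher and 17.3% lower in keratin-high cells. Of 330 ratios of single genes under the alternatives other than fold limits, 243 moved by no more than the reach of the widest counting interval, 87 moved further and 0 of those past 1.5-fold changed sign. With no library left out by design, the largest shift was 0.78 on the log2 scale, for the Slc2a3 ratio of formative-high over naive-high cells nearest to 1 (-0.17, and -0.95 with stricter classes, which leave library 1 too few cells). With genes of at least 1 CPM or at least 50 CPM as background, 45.6% or 30.1% of genes were apart between libraries, 12.2% or 4.30% higher and 7.92% or 5.36% lower in formative-high cells, and 17.9% or 8.17% higher and 11.4% or 9.87% lower in keratin-high cells. With 61 keratin-high and 86 formative-high cells, library 1 has the widest counting intervals.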
